A study of Mus musculus with 8 samples.

Results

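The apolipoprotein genes Apoa1, Apoa2, Apoa4, Apoa5, Apob, Apoc1, Apoc3, Apoe, Apoh and Apom were examined in a mouse hepatocyte line with and without the oncoprotein v-erbA. All probe sets whose platform gene symbol is one of these 10 genes were taken, which gave 10 of the 18192 genes named on the array and 17 of its 45037 probe sets. v-erbA is a viral, mutated form of the thyroid hormone receptor that binds DNA and represses transcription. The 2 lines were v-erbA-transfected AML12 cells and AML12 cells, and each was exposed to 1 µM retinoic acid (RA) or left untreated and sampled at 24 h or 3 h. Every combination was covered by 1 array, 8 in all. AML12 is an immortalised line from the liver of a mouse that carried a human TGF alpha transgene, so both lines share that background. Whether the transfected cells were a pool or a clone is not given in the sources used here, and v-erbA, the transfection and clonal differences cannot be told apart. For 3 of the 4 samples titled 24 h the sample description names 3 h; the titles were followed.

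Apolipoproteins are the protein part of the particles that carry lipid in plasma, and hepatocytes make most of them. Some form the structural frame of a particle, such as Apob in very low density lipoprotein and Apoa1 in high density lipoprotein (HDL), and others exchange between particles and steer lipases and receptors. Many of their genes are liver-enriched and carry response elements for nuclear receptors such as HNF4, and the Apoa1, Apoc3, Apoa4 and Apoa5 genes are neighbours in a row on chromosome 9. In the RefSeq gene order, Apoc1 and Apoe are likewise neighbours on chromosome 7.

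The results turn on Apoa1, Apoh and Apob, and their RefSeq promoter windows on GRCm38.p6 are shown as the DNA next to these transcripts. Each runs from 250 bases before to 50 bases after the annotated start, on the plus strand. Apoa1 lies at chr9:46228380-46228679, Apoh at chr11:108395047-108395346 and Apob at chr12:7977427-7977726. Capitals mark matches on either strand to 3 nuclear receptor half-sites or to an HNF4-type element, whose letters and shares of all windows follow the sequences.
Apoa1: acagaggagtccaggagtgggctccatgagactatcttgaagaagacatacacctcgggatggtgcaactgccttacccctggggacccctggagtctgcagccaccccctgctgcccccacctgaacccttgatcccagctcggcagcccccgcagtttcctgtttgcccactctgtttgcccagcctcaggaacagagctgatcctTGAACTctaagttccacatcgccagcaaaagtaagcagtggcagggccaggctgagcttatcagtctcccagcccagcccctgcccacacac
Apoh: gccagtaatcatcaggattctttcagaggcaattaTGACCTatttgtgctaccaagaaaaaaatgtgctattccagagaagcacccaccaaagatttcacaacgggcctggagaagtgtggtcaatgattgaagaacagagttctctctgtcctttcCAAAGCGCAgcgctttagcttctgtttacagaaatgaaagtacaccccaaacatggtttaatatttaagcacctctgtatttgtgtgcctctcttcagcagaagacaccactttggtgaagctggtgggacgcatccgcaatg
Apob: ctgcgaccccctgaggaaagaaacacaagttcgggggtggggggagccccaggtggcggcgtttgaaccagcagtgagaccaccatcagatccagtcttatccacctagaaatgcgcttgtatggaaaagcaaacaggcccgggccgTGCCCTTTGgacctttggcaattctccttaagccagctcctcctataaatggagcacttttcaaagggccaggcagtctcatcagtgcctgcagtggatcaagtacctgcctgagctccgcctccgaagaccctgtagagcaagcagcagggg

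The RefSeq table held 12 such windows for 8 of the 10 genes, every gene except Apoc1 and Apoc3. The windows of Apoa5 overlap and hold the same matches, and windows of Apoe overlap in part, so counts of windows are not counts of genes. The half-site AGGTCA occurred in 16.3% of the 32851 windows of all genes and in 2 of the 12. The variant GGGTCA occurred in 13.7% of all windows and in 4 of the 12, of Apoa5, Apoe and Apom. The variant AGTTCA occurred in 14.0% of all windows and in 2 of the 12. The Apoa1 window has AGTTCA on the reverse strand, 42 bases before the start. The Apoh window has AGGTCA on the reverse strand 215 bases before the start and CAAAGNNCA 93 bases before it. The Apob window has CAAAGNNCA on the reverse strand 103 bases before the start and TATAAA, not capitalised, 60 bases before it. CAAAGNNCA was found in 3 of the 12 windows, those of Apoa4, Apob and Apoh, and in 6.36% of all 32851 windows of 300 bases. At least 1 half-site was found in 8 of the 12 windows, of every gene with a window except Apob, and in 37.5% of all windows. In Apoa4 the AGTTCA match lies inside the CAAAGNNCA match. Direct repeats of AGGTCA with 1, 4 or 5 bases between, searched on both strands, were found in 0 of the 12 windows and in 0.0396%, 0.0152% and 0.00913% of all windows. These matches describe the letters of the windows and no binding was measured.

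Levels are the deposited signal intensities on a linear scale, which ran from 0 to 12275 units. Array medians lay between 71.2 and 76.1 units, and the median over all values was 73.5 units, which served as the level under which a probe set was called dim. Pearson correlations across probe sets between arrays that differed in 1 factor were 0.953 to 0.967 for line, 0.935 to 0.945 for time and 0.985 to 0.995 for RA. Of the 17 probe sets, 12 of 8 genes exceeded 73.5 units on at least 2 arrays and were tested. Of these 12, 4 read Apoa1 and 2 read Apob, so counts of probe sets count these genes more than once. Differences are log2 differences of signal plus an offset of 19.9 units, with the standard error (SE) of an additive limma fit of the 3 factors to the 8 arrays, and p-values are adjusted over all 21319 probe sets tested. Because no combination was replicated, the p-values only set each effect against the departure of these arrays from additive effects. That departure may be technical or hold real interactions of the factors, and no spread between replicates was measured. A change is called at an adjusted p under 0.05. Presence of the v-erbA mRNA was not analysed here.

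Markers of several cell types were read on these arrays. Albumin (Alb) measured 9364 to 10432 units in v-erbA cells and 9860 to 11053 units in AML12 cells, and 6 of the 10 hepatocyte markers on the array exceeded 73.5 units on all 8 arrays. All 5 biliary and progenitor markers on the array exceeded it on all 8 arrays, among them Krt19 at 1377 to 2296 units in v-erbA cells and 2559 to 4190 units in AML12 cells. Of the 7 macrophage markers, Cd14 and Csf1r exceeded it on all 8 arrays and Adgre1 on 4, while Cd68, Ptprc, Tyrobp and Lyz2 were dim on all 8. Of the 6 fibroblast and mesenchymal markers 2 exceeded it on all 8, among them Vim at 4771 to 6302 units in v-erbA cells and 6046 to 7129 units in AML12 cells. Apoa5, which promotes triglyceride clearance, was dim on 7 of 8 arrays and reached 86.6 units in untreated AML12 cells at 24 h. Apom, the HDL carrier of sphingosine phosphate, was dim on all 8 arrays at both of its probe sets, between 15.2 and 54.3 units. Neither gene passed the filter, and no fold is given for them.

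The transfected line had lower signals of every apolipoprotein gene that could be tested. Against AML12, 8 of 8 genes and 11 of 12 probe sets were lower and none was higher in the v-erbA line, and 9 of the 12 were lower with dim signals set to 73.5 units. With no filter on dim probe sets, 13 of all 17 were called lower and 1 higher, against 5859 lower and 6118 higher of all 34944. Apom, dim on all 8 arrays, read higher in the v-erbA line in 4 of 4 pairs at both its probe sets. Calls were common in this comparison: 52.1% of all probe sets tested were called, and 25.3% were called lower. The median difference over the 8 genes was -1.46 on the log2 scale, against 0.02 over all probe sets tested. For 5 of the 8 genes the 4 v-erbA arrays did not overlap the 4 AML12 arrays, and 36.9% of all probe sets tested had no overlap. Among these genes, Apoc3 passed the filter only through its AML12 arrays. In the pairs of single arrays, v-erbA over AML12, 9 of the 12 probe sets were at least 2-fold lower at 24 h, both under RA and untreated, against 2.07% and 2.48% of all probe sets tested. Both counts of 9 cover 6 of the 8 genes and include Apoa4, whose signals were dim in both lines at 24 h, so that no fold is given for it. At 3 h 7 of the 12, of 4 genes, were at least 2-fold lower, against 1.49% under RA and 1.74% untreated.

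**Figure D1:**
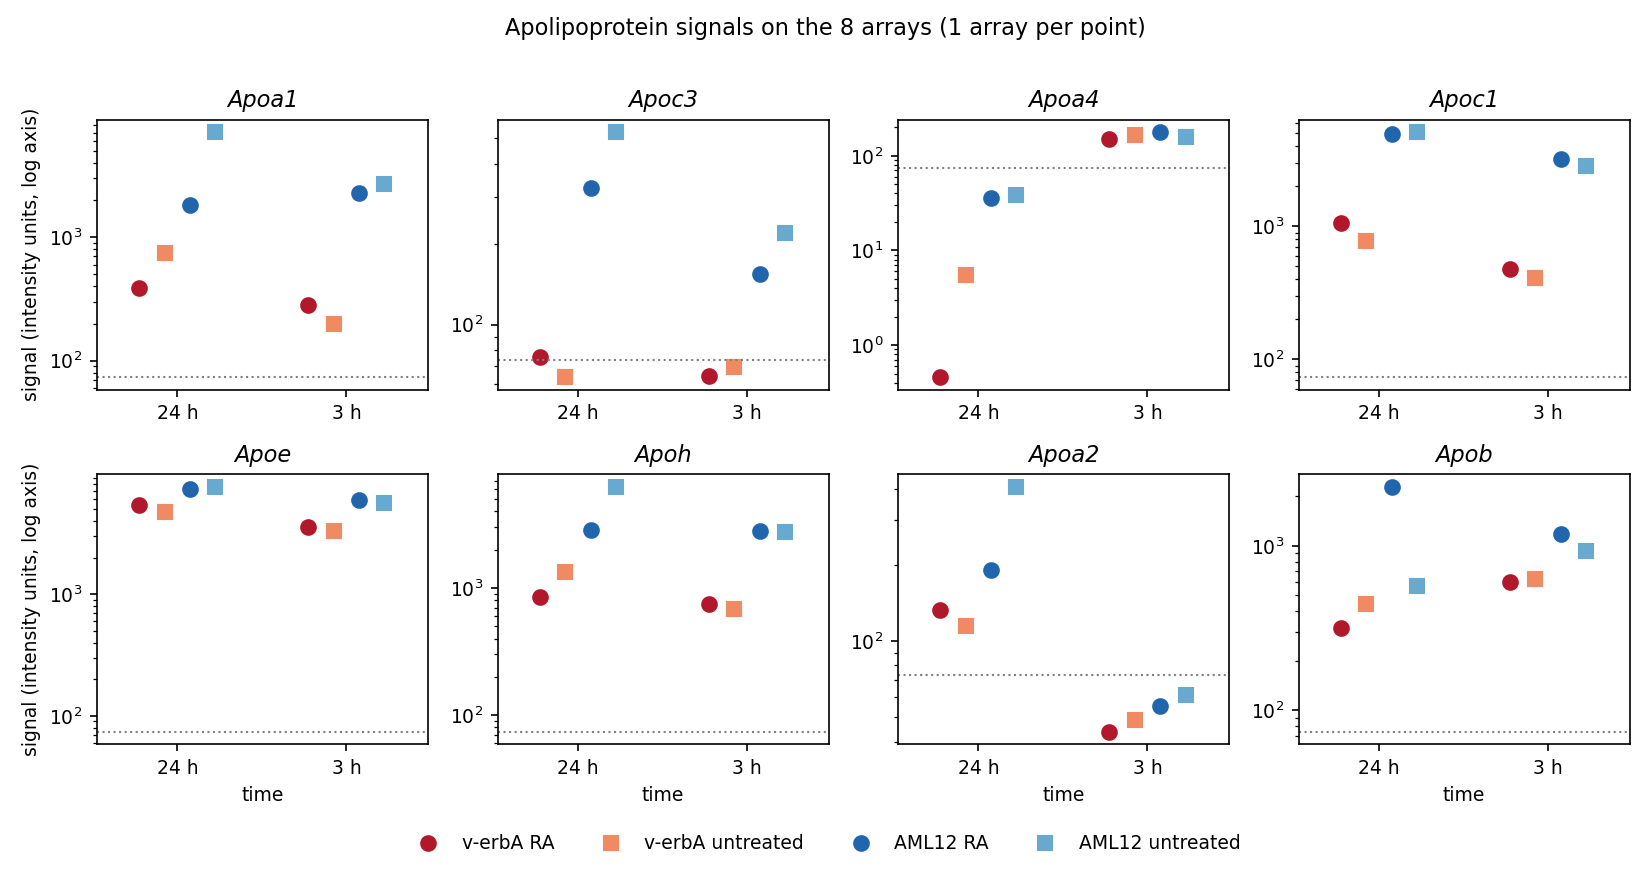
Signal (intensity units, log axis, scaled separately in each panel) of the brightest probe set of 8 apolipoprotein genes at 24 h and 3 h; each point is 1 array, red and orange for v-erbA cells and blue for AML12 cells, circles for RA and squares for untreated, and the dotted line is the 73.5-unit level. Apoa1, Apoc1, Apoc3, Apoe and Apoh keep the lines apart on all arrays, while Apob, Apoa2 and Apoa4 overlap.

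Apoa1, the main protein of HDL, differed most between the lines. In v-erbA cells its brightest probe set measured 389 and 282 units under RA at 24 h and 3 h, and 742 and 200 units untreated at 24 h and 3 h. In AML12 cells it measured 1823 and 2264 units under RA, and 7093 and 2682 units untreated, at 24 h and 3 h. All v-erbA arrays lay below all AML12 arrays. The difference was -2.98 ± 0.30 (SE), a 7.91-fold lower signal in the v-erbA line (limma adjusted p = 3.63e-05). All 4 Apoa1 probe sets were called, with differences between -2.93 and -3.18; 3 of them carry the suffix x_at, which marks probes that can match other transcripts.

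The C apolipoproteins are small proteins that move between particles. Apoc1 is carried on very low density lipoprotein and HDL. It measured 1058 and 478 units under RA and 772 and 409 units untreated in v-erbA cells at 24 h and 3 h. In AML12 cells it measured 4914 and 3205 units under RA and 5136 and 2846 units untreated. The lines were apart by -2.58 ± 0.08, a 5.99-fold lower signal in the v-erbA line (limma adjusted p = 2.94e-08), and the 4 matched pairs of arrays gave ratios between -2.19 and -2.74. Apoc3, an inhibitor of lipoprotein lipase, measured 75.6 and 64.0 units under RA and 63.5 and 69.2 units untreated in v-erbA cells, so that 3 of the 4 arrays were dim. In AML12 cells Apoc3 measured 325 and 154 units under RA and 526 and 221 units untreated, at 24 h and 3 h. The lines did not overlap, and the difference was -1.76 ± 0.21 (limma adjusted p = 9.40e-05), or -1.67 with dim signals set to 73.5 units. With 1 of 4 v-erbA arrays above that level, Apoc3 passed the filter only through AML12, so its call and lack of overlap are tied to the filter. In the pairs of arrays with a dim v-erbA signal, Apoc3 was at least 5.84-fold lower in the v-erbA line untreated at 24 h, and at least 1.86-fold under RA and 2.58-fold untreated at 3 h.

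Apoe, the ligand through which remnant particles bind their receptors, was bright in both lines. It measured 5444 and 3554 units under RA and 4735 and 3300 units untreated in v-erbA cells at 24 h and 3 h, against 7307 and 5968 units under RA and 7651 and 5666 units untreated in AML12 cells. The arrays did not overlap, and the difference was -0.66 ± 0.05, 1.58-fold lower in the v-erbA line (limma adjusted p = 6.71e-06). Its chromosomal neighbour Apoc1 thus had a difference of -2.58 on the same arrays; the difference between both genes was not tested. Apoh, a phospholipid-binding plasma glycoprotein, measured 854 and 752 units under RA and 1334 and 688 units untreated in v-erbA cells. In AML12 cells Apoh measured 2866 and 2795 units under RA and 6271 and 2782 units untreated, at 24 h and 3 h. It was 3.86-fold lower in the v-erbA line, a difference of -1.95 ± 0.17 (limma adjusted p = 1.24e-05). The second Apoh probe set was dim on all arrays except untreated AML12 at 24 h, where it reached 147 units.

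Apob, the structural protein of very low density lipoprotein, behaved differently across conditions. In v-erbA cells its brighter probe set measured 318 and 600 units under RA and 442 and 624 units untreated, at 24 h and 3 h. In AML12 cells it measured 2294 and 1189 units under RA and 567 and 927 units untreated. The lines overlapped, since untreated AML12 cells at 24 h lay below both v-erbA arrays of 3 h. The fitted difference was -1.16 ± 0.33, 2.24-fold lower in the v-erbA line (limma adjusted p = 0.0135). By pair, v-erbA over AML12 was -2.78 under RA at 24 h and -0.96 under RA at 3 h, and -0.35 and -0.56 untreated at 24 h and 3 h. The second Apob probe set stayed near the 73.5-unit level, between 42.2 and 95.7 units, and gave 0.01 ± 0.14 (limma adjusted p = 0.969), so the probe sets of Apob disagree.

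Apoa2 and Apoa4 had calls that rested on few arrays. Apoa2, an HDL protein, measured 132 and 115 units at 24 h in v-erbA cells with RA and untreated, against 191 and 408 units in AML12 cells with RA and untreated. At 3 h it lay between 43.6 and 61.4 units on all 4 arrays, under the dim level. Its difference of -0.66 ± 0.21 (limma adjusted p = 0.0238) became -0.54 (adjusted p = 0.107) once dim signals were set to 73.5 units, an alternative chosen after seeing the data. It was also lost without the untreated v-erbA array of 24 h (-0.45, adjusted p = 0.0903) or the RA-treated one (-0.67, adjusted p = 0.0553). Apoa4, made mainly by intestine and in part by liver, was read by an x_at probe set. It measured 0.458 and 5.56 units at 24 h in v-erbA cells with RA and untreated, against 36.2 and 38.3 units in AML12 cells with RA and untreated. All 4 arrays of 24 h were dim, and with dim signals set to 73.5 units the difference of -0.71 ± 0.23 (limma adjusted p = 0.0253) became -0.04 (adjusted p = 0.615). The Apoa4 call was also lost without any 1 of these 4 arrays (-0.49 to -0.61). The calls of the other 6 genes remained under every alternative run over the v-erbA effect.

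**Figure D2:**
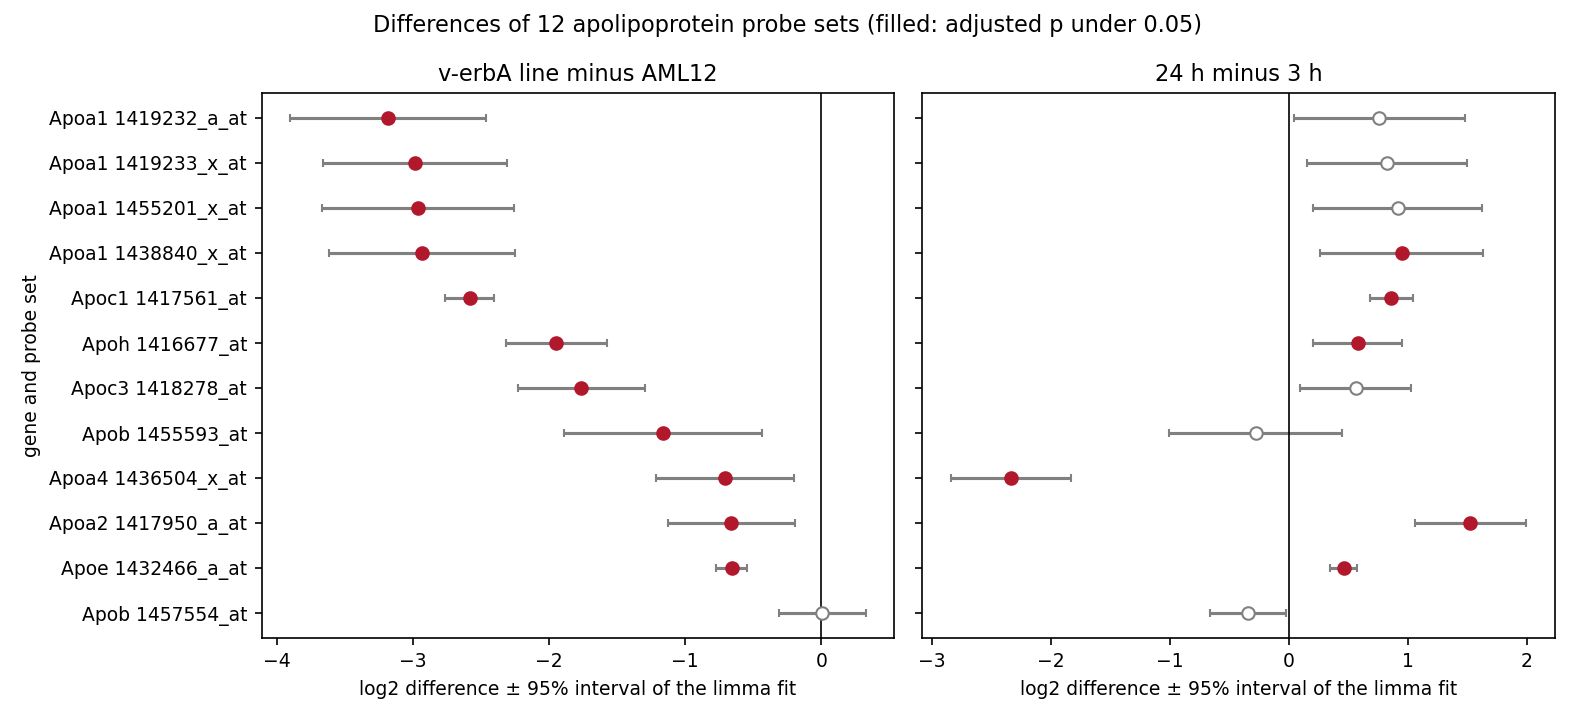
Log2 differences of the 12 tested apolipoprotein probe sets with 95% intervals of the limma fit over 8 arrays, v-erbA minus AML12 on the left and 24 h minus 3 h on the right; filled points have an adjusted p under 0.05 and open points do not. On the left 11 probe sets lie below 0 and the second Apob probe set lies at 0.01; on the right Apoa2 lies at 1.53 and Apoa4 at -2.33.

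The contrast between the lines was also fitted at each time in a model with a line by time term. At 24 h 8 of 8 genes were called lower, and at 3 h 5 of 8, while 19.4% and 19.3% of all probe sets tested were called lower at 24 h and 3 h. The call of Apoa4 at 24 h was lost with dim signals set to 73.5 units, since all 4 arrays were dim (adjusted p = 1). Apoa1 had differences of -2.70 at 24 h and -3.27 at 3 h, Apoc1 -2.45 and -2.72, Apoh -1.97 and -1.93, and Apoe -0.56 and -0.76. Apoc3 had -2.28 at 24 h and -1.24 at 3 h. Apob had -1.56 at 24 h and -0.76 at 3 h, where it was not called in this fit (limma adjusted p = 0.220). It was called in a fit of the 3 h arrays alone, added after seeing the data, which leaves 1 residual degree of freedom (limma adjusted p = 2.32e-07). The change of the v-erbA effect between the times was called for 0 of the 12 probe sets and for 0.0985% of all probe sets tested. Its unadjusted p was under 0.05 for 4 of the 12, of 4 genes, and for 1818 of all 21319. With all 2-way interactions in the model this change was called higher for 4 of the 12, the brightest Apoa1 probe set among them. It was called lower for 2, those of Apoa4 and Apoc3, against 0.868% and 0.882% of all probe sets tested. For Apoc3 it was -1.04 ± 0.26 (limma adjusted p = 0.291), and it ran from -1.34 to -0.74 over the fits that leave out 1 array, passing in 1 of them (-1.31, adjusted p = 0.0339, without the RA-treated AML12 array of 24 h). For Apob it was -0.80 ± 0.63 (limma adjusted p = 0.780). It became -1.82 (adjusted p = 0.00986) without the untreated AML12 array of 24 h and 0.21 (adjusted p = 0.680) without the RA-treated one, so its sign rests on single arrays. For Apoa2 it was -0.82 ± 0.34 (limma adjusted p = 0.567), which became -1.33 (adjusted p = 0.0169) without the RA-treated AML12 array of 24 h and -0.32 (adjusted p = 0.609) without the untreated one.

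RA gave no call among the apolipoproteins over both lines and times. None of the 12 probe sets passed in the limma fit, and 1.22% of all probe sets tested were called. The unadjusted p was under 0.05 for 3 of the 12, for 2 of the 8 genes at their brightest probe sets, and for 2294 of all 21319. Apoa1 had -0.66 ± 0.30 (limma adjusted p = 0.478), Apoh -0.41 ± 0.17 (adjusted p = 0.409) and Apoc1 0.19 ± 0.08 (adjusted p = 0.426). A model with all 2-way interactions, which leaves 1 residual degree of freedom, called 5 of the 12 lower and 2 higher, against 3.08% and 2.88% of all probe sets tested. By brightest probe set the lower genes were only Apoa1 and Apoh, and Apob and Apoc1 were the higher ones.

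Pairs of single arrays gave RA ratios for each line and time, without a test. Apoa1, RA over untreated, gave log2 ratios of -0.90 at 24 h and 0.46 at 3 h in v-erbA cells, and -1.95 at 24 h and -0.24 at 3 h in AML12 cells. Apoh gave -0.63 and 0.13 in v-erbA cells and -1.12 and 0.01 in AML12 cells, at 24 h and 3 h. Both genes were lower under RA at 24 h in each line, by 3.86-fold for Apoa1 and 2.18-fold for Apoh in AML12 cells. A fit of the 4 arrays of 24 h alone was chosen after seeing the data and leaves 1 residual degree of freedom. In it Apoa1 was at -1.42 ± 0.18 (limma adjusted p = 0.00749) and Apoh at -0.88 ± 0.10 (limma adjusted p = 0.00407). That fit called 5 of the 12 probe sets lower, the 4 of Apoa1 and 1 of Apoh, and 1.05% of all probe sets tested. The corresponding 3 h fit gave 0.11 for Apoa1 and 0.07 for Apoh, neither called, and called Apoc1 alone among the 12, at 0.19 ± 0.04 (limma adjusted p = 0.0209), while 1.74% of all probe sets tested were called higher.

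The change of the RA effect between the times was tested directly with a treatment by time term. It was called for 0 of the 12 probe sets and for 0.00938% of all probe sets tested. The unadjusted p was under 0.05 for 6 of the 12, the 4 of Apoa1 among them, and for 1548 of all 21319. By brightest probe set that was 2 of the 8 genes, Apoa1 and Apoh. For Apoh it was -0.95 ± 0.14 (unadjusted p = 7.09e-05, limma adjusted p = 0.162), and for Apoa1 -1.53 ± 0.36 (limma adjusted p = 0.434). The Apoh value passed without the RA-treated or without the untreated v-erbA array of 24 h (-1.09, adjusted p = 0.0175, and -1.12, adjusted p = 0.00954) and in no other fit without 1 array, down to -0.77. The Apoa1 value passed without the RA-treated v-erbA array of 24 h (-2.07, adjusted p = 0.0110) and in no other fit without 1 array, and was -0.99 (adjusted p = 0.599) without the RA-treated AML12 array of 24 h. Apoa1 and Apoh passed with all 2-way interactions in the model, and no other gene did at its brightest probe set. That model called 5 of the 12 probe sets lower, against 1.03% of all probe sets tested. Apob, at 0.62 ± 0.64 (limma adjusted p = 0.871), became 1.69 (adjusted p = 0.0187) without the RA-treated v-erbA array of 24 h and -0.46 (adjusted p = 0.939) without the RA-treated AML12 array of 24 h. Hepatocyte markers outside the apolipoproteins had a median change of -0.75 over 9 genes in the same term, with 0 called; their part in the Apoa1 and Apoh values was not tested.

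**Figure D3:**
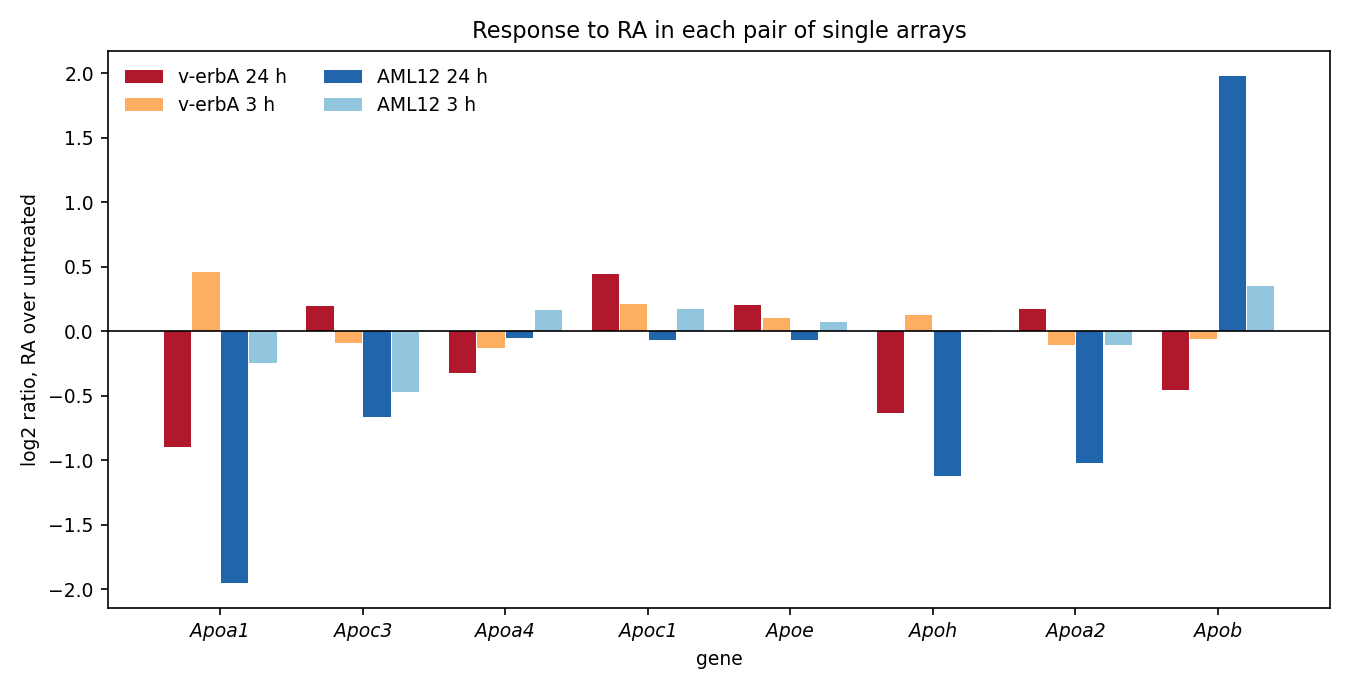
Log2 ratio of RA over untreated for the brightest probe set of 8 apolipoprotein genes, 1 bar per pair of single arrays, red and orange for v-erbA cells at 24 h and 3 h and blue for AML12 cells at 24 h and 3 h, with no error since each bar is 1 pair. Apoa1 and Apoh are below 0 at 24 h in both lines, and Apob is at -0.45 in v-erbA cells and 1.98 in AML12 cells at 24 h.

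The brighter probe set of Apob had RA ratios of opposite sign in the lines. In single pairs of arrays it was 1.37-fold lower under RA at 24 h and 1.04-fold lower at 3 h in v-erbA cells, and 3.94-fold higher at 24 h and 1.28-fold higher at 3 h in AML12 cells. The second probe set, near the dim level, did not have this pattern: its log2 ratios were -0.22 and 0.04 in v-erbA cells and -0.54 and 0.34 in AML12 cells at 24 h and 3 h. In AML12 at 24 h, Apob was the only probe set of the 12 at least 2-fold higher under RA, against 0.568% of all probe sets tested. In that pair 6 of the 12, those of Apoa1, Apoh and Apoa2, were at least 2-fold lower, against 0.436% of all probe sets tested. None of the 12 reached 2-fold under RA in v-erbA cells at 24 h or 3 h or in AML12 cells at 3 h, against 0.169%, 0.0657% and 0.235% of all probe sets tested. Over both times Apob had an RA effect of -0.25 ± 0.34 in the v-erbA line and 1.17 ± 0.34 in AML12, neither called (limma adjusted p = 1.00 and 0.273). RA effects within a line were called for 0 of the 12 probe sets in either, against 0.00938% of all probe sets tested in the v-erbA line and 0.371% in AML12. In the v-erbA line the unadjusted p was under 0.05 for 2 of the 12, of 2 genes, and for 726 of all 21319. In AML12 it was under 0.05 for 6 of the 12, of 3 genes, and for 2111 of all 21319.

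The difference of the RA effects, v-erbA minus AML12, was -1.42 ± 0.48 for Apob, with a 95% interval from -2.51 to -0.33. Its unadjusted p was 0.0162 and its limma adjusted p was 1.00. No probe set passed in this test, 0% of the 21319, while 394 had an unadjusted p under 0.05, 1 of them among the 12. The second Apob probe set gave 0.01 ± 0.30. Without the RA-treated AML12 array of 3 h, the Apob difference of the brighter probe set became -2.23 (limma adjusted p = 0.00512) and its RA effect in AML12 became 1.98 (adjusted p = 0.00127), a value that then rests on the 24 h pair. Without the RA-treated AML12 array of 24 h they became -0.61 and 0.36 (adjusted p = 1.00 and 0.865), so both rest largely on that array. With all 2-way interactions in the model the difference of -1.42 passed (limma adjusted p = 0.00460), as did that of Apoa1, 0.88 (limma adjusted p = 3.41e-05). No other gene passed there at its brightest probe set. That model called 5 of the 12 probe sets, against 0.131% of all probe sets tested. For Apoa1 the fit with the line by treatment term alone gave 0.88 ± 0.55 with an interval from -0.37 to 2.12, so a like response of both lines was not shown. Without the untreated AML12 array of 3 h, the RA effect of Apoa2 in AML12 became -1.14 (limma adjusted p = 0.0386), against -0.56 with it, where it was not called, and it became 0.01 without the untreated AML12 array of 24 h.

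Time in culture moved several apolipoproteins, mostly upward. At 24 h against 3 h, 4 of the 8 genes were called higher and 1 lower, and of the 12 probe sets 5 were higher and 1 lower, while 17.2% of all probe sets tested were called higher and 14.2% lower. With all 2-way interactions in the model 9 of the 12 were higher and 2 lower, Apoa1 at its brightest probe set and Apoc3 among the higher, against 20.4% and 17.2% of all probe sets tested. Time and any separate handling of the arrays cannot be told apart, and the labels name no batch. Apoa2 was dim at 3 h on all 4 arrays and above the level at 24 h on all 4, at least 2.22-fold higher at 24 h (1.53 ± 0.21, limma adjusted p = 4.07e-04). Apoc1 was higher at 24 h by 0.86 ± 0.08 (limma adjusted p = 2.50e-05) and Apoe by 0.46 ± 0.05 (adjusted p = 8.43e-05), each in 4 of 4 pairs.

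The x_at probe set of Apoa4 fell at 24 h. It measured 0.458 to 38.3 units at 24 h and 149 to 179 units at 3 h, with no overlap, at least 1.95-fold lower at 24 h (-2.33 ± 0.23, limma adjusted p = 3.58e-05). The second Apoa4 probe set was dim on all 8 arrays, between 0.379 and 28.8 units, and did not show this fall. At 3 h it read 0.379 to 13.0 units, and it was higher at 24 h in 3 of 4 pairs. The fall thus rests on the x_at probe set alone, and which transcripts that probe set matches was not checked. The arrays of both times did not overlap for 3 of the 12 probe sets, those of Apoa2 and Apoa4 and the second one of Apob, against 17.8% of all probe sets tested. Each of these probe sets passed the filter only through arrays of a single time. That time was 24 h for Apoa2 and 3 h for Apoa4 and the second Apob probe set. Their lack of overlap, and the time calls of Apoa2 and Apoa4, are thus tied to the filter.

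Apoh and Apoa1 had higher time ratios on untreated arrays than on RA-treated ones. Apoa1, 24 h over 3 h, gave ratios of 0.44 under RA and 1.79 untreated in v-erbA cells, and -0.31 under RA and 1.40 untreated in AML12 cells. Of its 4 probe sets 1 was called for time (0.95, limma adjusted p = 0.0396); the brightest gave 0.83 ± 0.30 (adjusted p = 0.0619), which became 1.22 (adjusted p = 0.00107) without the RA-treated AML12 array of 24 h and 1.04 (adjusted p = 0.0370) without the RA-treated v-erbA array of 3 h, and ran down to 0.48 without another array. Apoh was called at 0.58 ± 0.17 (limma adjusted p = 0.0244), and the call was lost without any 1 of the 4 untreated arrays (0.39 to 0.53) and without the mean-variance trend (adjusted p = 0.0644). Apoc3, at 0.56 ± 0.21 (limma adjusted p = 0.0649), passed without the untreated v-erbA array of 24 h (0.81, adjusted p = 0.00845) or the RA-treated v-erbA array of 3 h (0.74, adjusted p = 0.0269), and ran down to 0.33 without another array. Apob, at -0.28 ± 0.33 (limma adjusted p = 0.551), became -0.76 (adjusted p = 0.00135) without the RA-treated AML12 array of 24 h and ran up to 0.05 without another array.

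Among the apolipoproteins outside the 10 genes, 4 of 6 tested were lower in the v-erbA line and 0 higher, with a median of -0.83 against 0.01 over all genes. Over all probe sets tested, 26.8% were called higher and 25.3% lower in this comparison. Apoc2, the activator of lipoprotein lipase, was at -1.73 ± 0.09 (limma adjusted p = 6.11e-07), Apoc4 at -1.22, Apon at -1.06 and Apof at -0.59, while Clu at 0.04 and Apol6 at -0.21 were not called. Over time Apoc2 rose by 0.90, Apoc4 by 0.78 and Clu by 0.11 at 24 h, and Apol6 fell by 2.24. The lists of related genes were chosen with earlier results of these data known, and their counts describe these arrays.

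The machinery that loads and secretes Apob particles did not move in 1 direction. Of 14 genes tested, 3 were higher and 7 lower in the v-erbA line, against 26.8% and 25.3% of all probe sets tested, with a median of -0.12. Mttp, which transfers lipid to Apob, was higher at 0.33 ± 0.13 (limma adjusted p = 0.0486), as was the sorting receptor Sort1 at 0.49, while Tm6sf2 at -1.01, Cideb at -0.78 and Dgat2 at -0.43 were lower. Apobec1, the enzyme that edits Apob mRNA, was the only one called for RA, at 0.41 ± 0.07 (limma adjusted p = 0.0225), and was higher at 24 h by 0.53. Of 10 genes of HDL formation, 2 were higher and 6 lower, against the same shares. Abca1, the transporter that loads lipid onto Apoa1, was higher at 0.28 ± 0.06 (limma adjusted p = 0.00264), and the HDL receptor Scarb1 was lower at -0.37. Of 10 receptor and clearance genes, 1 was higher and 4 lower, again against 26.8% and 25.3%, led by Lrp8, a receptor for Apoe, at -0.85; under RA Lpl rose by 0.51 and Vldlr fell by 0.45.

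**Figure D4:**
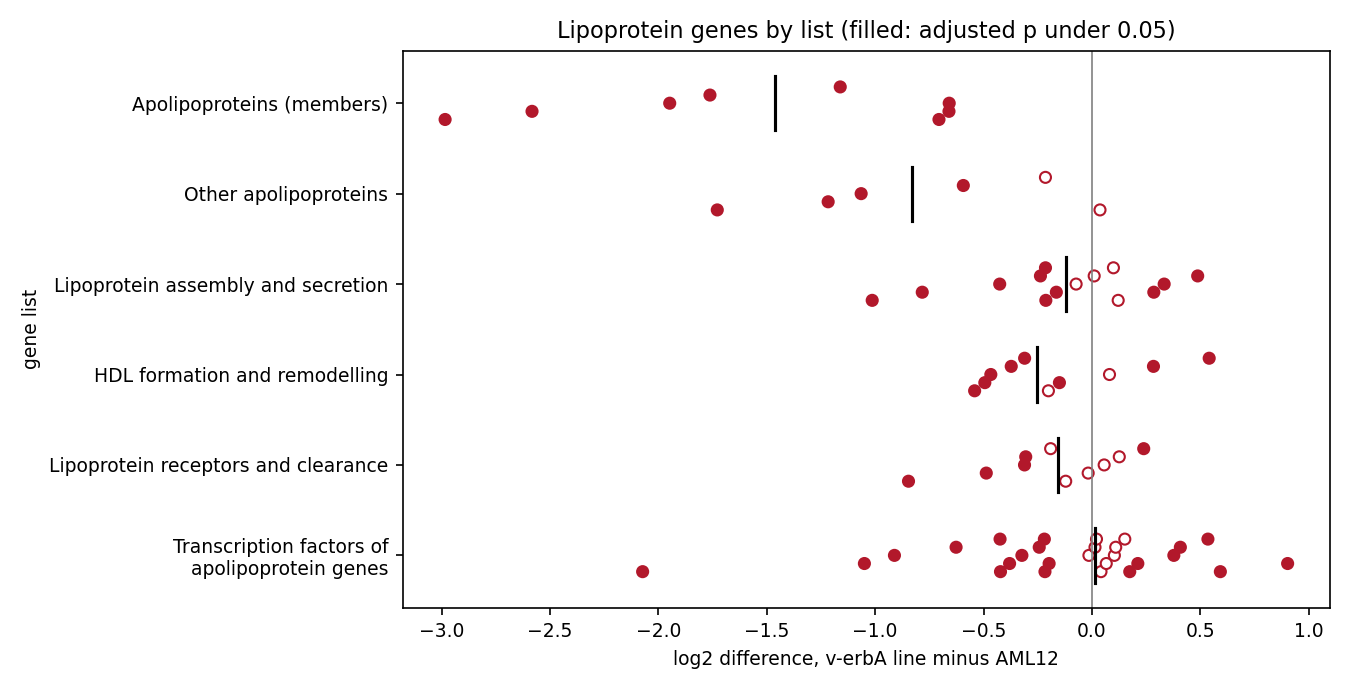
Log2 difference, v-erbA line minus AML12, of each tested gene in 6 lists, 1 point per gene, with a vertical bar at the list's median; filled points have an adjusted p under 0.05 in the limma fit. The 8 apolipoprotein members lie between -2.98 and -0.66 with a median of -1.46, and the 5 other lists have medians between -0.83 and 0.01.

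Of 27 transcription factors known to act on apolipoprotein genes, 7 were higher and 12 lower in the v-erbA line, against 26.8% and 25.3% of all probe sets tested, with a median of 0.01. The lower ones were led by Nr0b2, a corepressor of nuclear receptors, at -2.07 ± 0.16, Cebpa at -1.05 ± 0.06 and Rxra, the partner receptor of many nuclear receptors, at -0.91 ± 0.07 (limma adjusted p = 7.24e-06, 7.39e-07 and 4.73e-06). Hnf4a, an activator of Apoa1, Apob and Apoc3, was lower at -0.63 ± 0.05 (limma adjusted p = 1.11e-05), while Ppargc1a at 0.90 and Foxa3 at 0.59 were higher. Under RA 1 of the 27 rose and 2 fell, while 1.22% of all probe sets tested were called: Nr0b2 rose by 2.10 ± 0.16 (limma adjusted p = 0.00101), Ppara fell by 0.93 and Hnf4a fell by 0.27. At 24 h 7 were higher, led by Creb3l3 at 1.47, and 2 lower, against 17.2% and 14.2% of all probe sets tested.

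Hepatocyte markers moved with the apolipoproteins in part. In the v-erbA line 4 of 9 tested were lower and 0 higher, against 25.3% and 26.8% of all probe sets tested: Fgg at -1.82, Cps1 at -1.37, Ahsg at -1.32 and Tat at -1.11, while Alb at -0.07 was not called. In v-erbA cells Fgg measured 30.0 to 85.8 units, Ahsg 40.2 to 126 units and Tat 33.3 to 77.3 units. The differences of Fgg, Ahsg and Tat thus rest in part on dim signals. The summed signal of the hepatocyte list ran from 27404 to 32784 units in v-erbA cells and from 29178 to 37888 units in AML12 cells, which overlapped, and Alb and Ttr made up most of it. The sums of 4 other lists did not overlap between the lines. The biliary and progenitor sum was 3470 to 4393 units in v-erbA cells and 4876 to 6109 units in AML12 cells. Its genes did not move together: 2 were called higher in the v-erbA line and 1 lower, against 26.8% and 25.3% of all probe sets tested. Krt19 was lower, while Krt7 measured 418 to 450 units in v-erbA cells and 244 to 333 units in AML12 cells. Afp measured 203 to 268 units in v-erbA cells and 104 to 173 units in AML12 cells. The macrophage sum, mostly Cd14, was 2165 to 3011 units in v-erbA cells and 3376 to 5482 units in AML12 cells. The endothelial sum was 289 to 370.4 units in v-erbA cells and 138 to 232 units in AML12 cells. Of its markers only Flt1 kept the lines apart, at 78.1 to 228 units in v-erbA cells and 2.09 to 12.5 units in AML12 cells. Kdr, Tek, Pecam1 and Cdh5 overlapped between the lines, and Pecam1 and Cdh5 were dim on every array. The enterocyte sum, mostly Vil1, was 1542 to 1877 units in v-erbA cells and 1119 to 1443 units in AML12 cells. The fibroblast and mesenchymal sum overlapped, at 5065 to 6607 units in v-erbA cells and 6376 to 7472 units in AML12 cells. At 24 h 5 of the 9 hepatocyte markers were higher than at 3 h, against 17.2% of all probe sets tested, and under RA 0 were called. Fewer cells of a kind and less RNA per cell cannot be told apart in these bulk samples, and the part of these markers in the apolipoprotein differences was not tested.

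Likeness of pattern was measured as Pearson's r of log2 values over the 8 arrays, a description that the split between the lines dominates. The genes most like Apoa1 were Ptgds (0.994), Apoh (0.993) and Itm2b (0.989). Those most like Apoc1 were Creg1 (0.997), H2-K1 (0.996) and Ero1a (0.995). Those most like Apoh were Gstp3 (0.996), Mettl7a2 (0.993) and Nit2 (0.993), and those most like Apoc3 were Gm17753 (0.992), Cxcl16 (0.990) and Xylb (0.987). Apoh was thus the only other member among the 3 nearest genes of these 4 members.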

How the data were processed

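Linear signal intensities of 8 mouse Affymetrix arrays were used as the authors deposited them, without further scaling; total RNA was extracted with Trizol and RNeasy columns, per the labels' protocols. How probes were summarized and arrays scaled is not given in the sources used here. Of 45037 probe sets, 1 without a value on 4 arrays was left out. The platform annotation named 1 gene for 34944, several for 932 and none for 9160; 34740 gene identifiers were found in RefSeq (GRCm38.p6) and 204 were not.

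Values became log2(signal + 19.9), the offset being the 20th percentile of all values. Probe sets above the pooled median of 73.5 units on at least 2 of 8 arrays were tested (21319). limma 3.58.1 in R 4.3.3 fitted line, treatment and time (4 residual degrees of freedom), or these with 1 interaction (3 degrees), with a mean-variance trend and Benjamini-Hochberg adjustment at 0.05. The fits of a single time and those with all 2-way interactions left 1 residual degree of freedom. Where all arrays of the lower group were dim, the fold is a bound against 73.5 units. The procedure was tested on simulated data with independent noise and planted changes. That test checked the sign and size of the planted changes and held no batch, so it cannot speak to the handling of these arrays. The number of arrays limits the precision.

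All 10 genes and all their probe sets are named, and the brightest probe set (highest mean over 8 arrays) stands for its gene in counts of genes. Of other lists, the text names at most 6 genes for v-erbA and at most 4 for RA or time, the largest of those called, and Abca1 and genes named as not called, which were chosen after their values were seen. Likeness is given for the 4 members with the largest v-erbA effect. Members and lists were chosen with earlier results of these data known. Alternatives were other offsets, filters, scalings, models and left-out arrays. Plots used Python 3.11.15 and matplotlib 3.10.9.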

Additional observations from a re-analysis of the deposited data

Results flagged for a closer look

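At the brighter Apob probe set, RA ratios had opposite signs in the lines at both times: log2 ratios of RA over untreated were -0.45 and -0.06 in v-erbA cells and 1.98 and 0.35 in AML12 cells at 24 h and 3 h. The difference, v-erbA minus AML12, was -1.42, and the test of it did not pass (limma adjusted p = 1.00); it became -0.61 without the RA-treated AML12 array of 24 h. The second Apob probe set, near the dim level, gave a difference of 0.01 ± 0.30.

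Apoh had RA ratios below 0 at 24 h and above or near 0 at 3 h: they were -0.63 and -1.12 at 24 h and 0.13 and 0.01 at 3 h in v-erbA and AML12 cells. The difference, 24 h minus 3 h, was -0.95, and the test of it did not pass (limma adjusted p = 0.162).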

How the results depend on the processing

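No call of an apolipoprotein probe set changed sign under any alternative run. Counts over all probe sets moved more. With 1 probe set per gene, the counts of called features were 6421 for v-erbA (11100 as reported), 4164 for time (6696), 141 for RA (260), 37 for RA in AML12 (79), 0 for RA in the v-erbA line (2) and 12 for the change of the v-erbA effect between times (21). With all 2-way interactions they were 1271 for RA, 28 for the difference of RA between lines (0), 312 for that between times (2) and 373 for the change of the v-erbA effect. Without the mean-variance trend they were 36 for RA and 0 for RA in AML12, for RA in the v-erbA line and for RA between times. With dim signals set to 73.5 units, an alternative chosen after seeing the data like the fits of single times, they were 15 for RA in AML12, 0 for RA in the v-erbA line, 0 for RA between times and 13 for the change of the v-erbA effect. RA in the 3 h arrays alone gave 761. RA in the v-erbA line gave 9 with arrays centred, with at least 4 of 8 arrays above the median or with no filter, and 0 with a larger offset or quantile normalization; RA between times gave 1 with quantile normalization. The change of the v-erbA effect gave 11 with at least 4 of 8 arrays above the median and 34 with no filter. Leaving out each array in turn gave 9373 to 10624 calls for v-erbA, 4955 to 6245 for time, 61 to 267 for RA, 7 to 373 for RA in AML12, 0 to 2 for RA in the v-erbA line, 0 to 7 for the difference between lines, 0 to 131 for that between times and 6 to 307 for the change of the v-erbA effect. The time calls split into 3660 higher and 3036 lower, against 2890 and 3900 with arrays centred; the cause was not tested. The labels give no replicate numbers to pair by; blocks of arrays matched in the other factors called 11 of the 12 probe sets lower for v-erbA, 6 higher and 1 lower for time and 0 for RA. Dim signals limit Apoa2, Apoa4, Apoa5, Apom and the v-erbA arrays of Apoc3.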
